A study of Drosophila melanogaster with 6 samples.

Results

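Sirup and the subunits of succinate dehydrogenase were followed in Drosophila S2 cells exposed to protocatechuic aldehyde (PA). The genes looked for were Sirup, SdhA, SdhB, SdhC and SdhD, and a gene was measured where the array annotation ties a probe set to it and to no other gene. That held for 4 of the 5 genes, each with 1 probe set, out of 11982 genes with such a probe set and 18769 probe sets tested. No probe set was matched to SdhA, which is not analysed here. Sirup was taken up because of its rise: it was selected on its signals on these same arrays, so its values are given as a description with no test. The subunits were taken up because they form the enzyme that the Sirup protein helps to assemble.

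PA is 3,4-dihydroxybenzaldehyde, a small phenolic aldehyde that the study isolated from bamboo leaves. S2 cells are a line derived from Drosophila embryos with features of blood cells, and they were grown in medium with insulin and fetal bovine serum. In one group, 3 samples were exposed to PA at 0.1 mM for 2 h, and in the other, 3 samples received vehicle, with RNA of each sample hybridised to its own GeneChip array. The labels do not say whether the samples of a group came from separate cultures, so the p-values below measure only the spread between samples, which may be technical.

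Succinate dehydrogenase, or complex II, belongs to both the tricarboxylic acid cycle and the respiratory chain of the mitochondrion. It oxidises succinate to fumarate and passes the electrons to ubiquinone in the inner membrane. SdhA is the flavoprotein subunit that holds a covalently bound FAD and the succinate site. SdhB carries the iron-sulphur clusters, and SdhC and SdhD anchor the enzyme in the membrane and bind ubiquinone and heme. Sirup is the Drosophila counterpart of the mammalian assembly factor SDHAF4, a small mitochondrial protein that binds flavinated SdhA before it joins SdhB, and its name comes from its induction by starvation in flies.

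Sirup had a 3.78-fold higher mean signal with PA, whereas the 3 measured subunits moved by 1.09-fold or less and none of them passed the test. The unit is the MAS5 signal, a linear intensity for each probe set, and the arrays had been scaled to the same trimmed mean. The signal of Sirup (probe set 1626442_at) was 1763, 1581 and 1653 on vehicle arrays 1, 2 and 3, and 6132, 5998 and 6746 on PA arrays 1, 2 and 3. All 3 PA arrays lay above all 3 vehicle arrays, with a wide gap between the groups, and PA array 3 was the highest. The group means were 1666 ± 91.6 and 6292 ± 399 (SD over 3 arrays), and their ratio was 3.78. On the log2 scale the difference, PA minus vehicle, was 1.92 with a standard error of 0.05 and a 95% confidence interval from 1.81 to 2.03, which is 3.50-fold to 4.07-fold. This interval reflects only the spread between arrays and makes no allowance for the choice of Sirup by its rise.

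SdhB (probe set 1640632_at) had signals of 2798, 2940 and 2963 on the vehicle arrays and of 3027, 3130 and 3074 on the PA arrays. The groups did not overlap, but the lowest PA array stood close above the highest vehicle array. The group means were 2900 ± 89.5 and 3077 ± 51.6 (SD over 3 arrays). The log2 difference of SdhB was 0.09, or 1.06-fold, with a standard error of 0.04 and an interval from 0.00 to 0.17 on the log2 scale. It did not pass the test with limma (adjusted p = 0.265 over all probe sets tested).

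For SdhC, one of the membrane anchors (probe set 1639507_at), the vehicle arrays gave 3911, 4106 and 4185 and the PA arrays 4378, 4420 and 4494. Here, too, every PA array was above every vehicle array. The means were 4067 ± 141 and 4431 ± 58.7 (SD over 3 arrays). The log2 difference was 0.12 (standard error 0.04), 1.09-fold with an interval from 1.03 to 1.15, and limma gave an adjusted p of 0.0764, which misses the threshold of 0.05. When arrays were centred on the 75th percentile of their signals, SdhB (log2 difference 0.17, adjusted p = 0.0446) and SdhC (0.20, adjusted p = 0.0154) were both called higher, and SdhC was also called when the dimmer probe sets were left out before the fit (adjusted p = 0.0388).

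SdhD, the other membrane anchor (probe set 1627518_at), had signals of 2142, 2136 and 2302 with vehicle and of 2274, 2370 and 2174 with PA. The groups overlapped, as PA array 3 was below vehicle array 3. The means were 2193 ± 94.1 and 2273 ± 98.1 (SD over 3 arrays), and the log2 difference of 0.05 (standard error 0.05; adjusted p = 0.666, limma) had an interval from -0.05 to 0.15, or 0.97-fold to 1.11-fold. Centring the arrays on their medians turned the sign, to -0.03. Exact 2-sided permutation tests of the single genes gave p = 0.1 for SdhB and for SdhC, the smallest that 3 arrays against 3 allow, and p = 0.3 for SdhD.

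**Figure D1:**
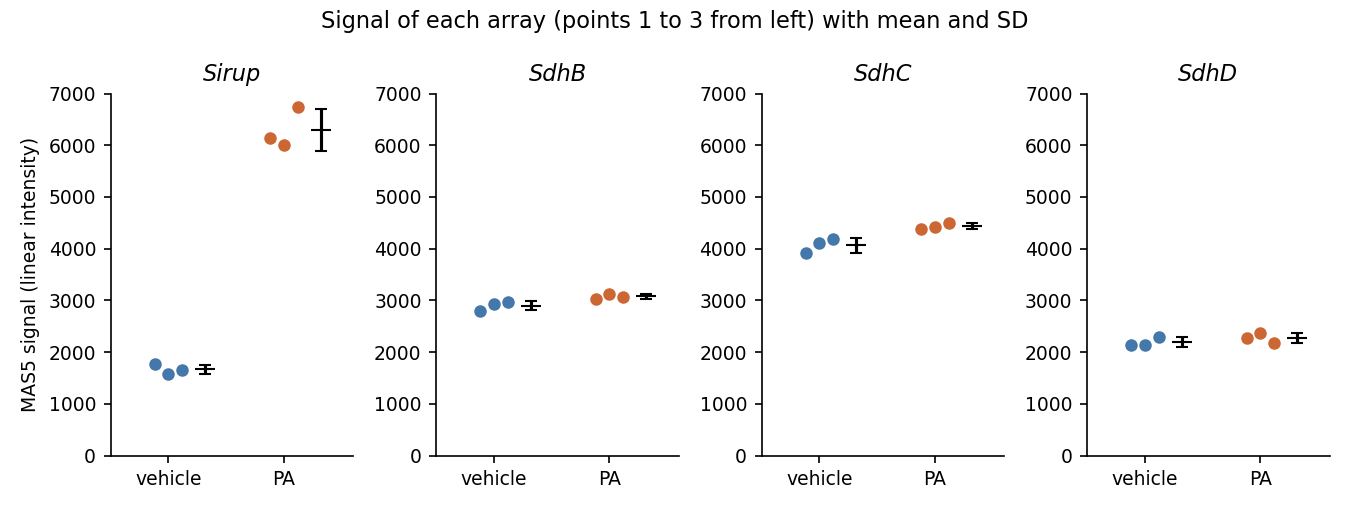
MAS5 signal (linear intensity, axis from 0) of Sirup, SdhB, SdhC and SdhD on the 3 vehicle and the 3 PA arrays. Each point is 1 array, and the bar beside each group gives the mean and SD. Sirup lay between 1581 and 1763 with vehicle and between 5998 and 6746 with PA, while the groups of each subunit were close together or overlapped.

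Of the 18769 probe sets, limma called 958 (5.10%) at an adjusted p under 0.05, 429 of them (2.29%) higher and 529 (2.82%) lower with PA. The split depended on the scaling, with 58 higher and 350 lower when arrays were centred on the median and 988 and 211 when they were centred on the 75th percentile. None of the 3 subunits was among the 958, although 2, SdhB and SdhC, had an unadjusted p under 0.05, and the same 2 passed the methods' t-test at that level without adjustment. Of all 18769 probe sets, that t-test called 1234 higher and 1460 lower. The share of all probe sets with an unadjusted limma p under 0.05 was not counted, here or for the gene lists below. Every PA array was above every vehicle array for 9.61% of all probe sets and for 2 of the 3 subunits, and below for 11.9% and for none of the subunits. The log2 differences of the subunits ran from 0.05 to 0.12 with a median of 0.09, beside a median of -0.013 over all probe sets. The highest upper bound among the 3 intervals was 0.20 on the log2 scale, or 1.15-fold. It holds for the main scaling only and makes no allowance for other scalings. With centring on the 75th percentile the log2 difference of SdhC was itself 0.20. In a bulk sample, fewer cells that make an RNA and less of it in each cell cannot be told apart.

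The median log2 difference varied with brightness. All 4 genes were in the brightest of 10 equal classes of probe sets, at percentiles 91.7 to 95.8 of the mean signal, and in that class the median log2 difference was 0.047, with quartiles of -0.031 and 0.113. In the 3 classes just below, the medians were -0.084, -0.081 and -0.054. In the dimmer classes 1 to 6 they were positive, from 0.030 to 0.119, so they did not rise steadily with brightness. Of the 1877 probe sets in the brightest class, 402 (21.4%) had a larger log2 difference than SdhC, 660 (35.2%) a larger one than SdhB, and 908 (48.4%) a larger one than SdhD. With the arrays centred on that brightest class, a setting chosen after the data were seen, the differences were 0.10 for SdhC (adjusted p = 0.137), 0.06 for SdhB (adjusted p = 0.433) and 0.03 for SdhD (adjusted p = 0.829). The part of brightness in the subunits' differences was not tested further. For Sirup the same centring gave 1.89. As a description, only 1 probe set of the brightest class had a larger difference than Sirup, 1635227_at, which the annotation ties to no single gene. It had signals of 1473, 1554 and 1541 with vehicle and of 5844, 5822 and 5585 with PA.

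**Figure D2:**
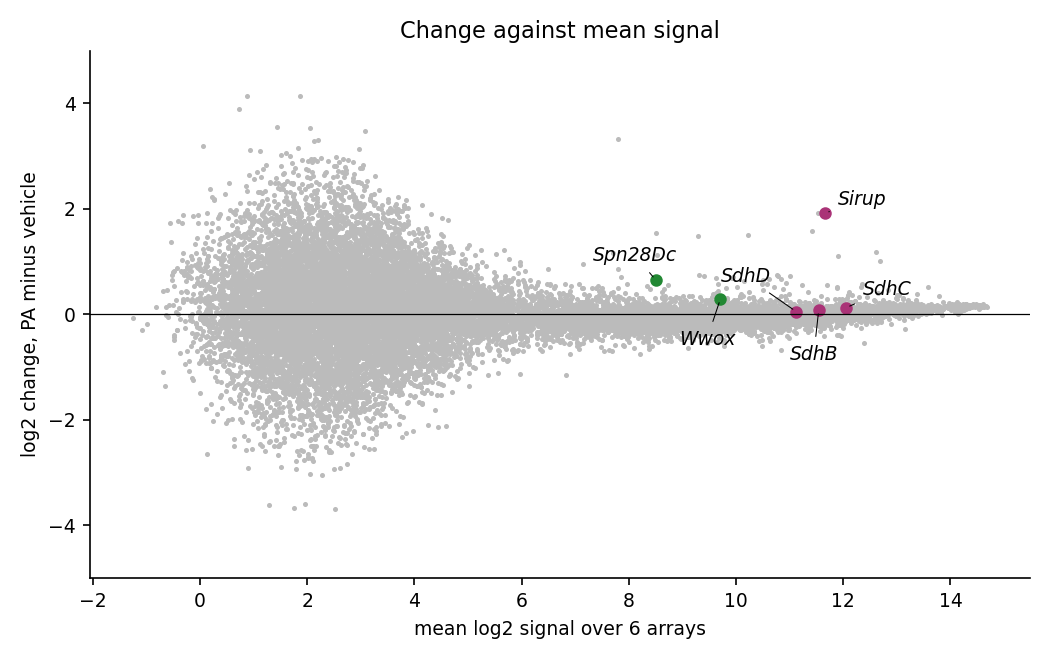
Log2 difference, PA minus vehicle (vertical axis), against the mean log2 signal over the 6 arrays (horizontal axis) for all 18769 tested probe sets (grey points). Purple points mark Sirup and the subunits, and green points mark Wwox and Spn28Dc, which follow Sirup on the chromosome. Sirup stands at 1.92 among bright probe sets, while SdhB, SdhC and SdhD lie between 0.05 and 0.12.

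None of the other measured genes tied to complex II passed the test. The list of accessory genes held 7 names, of assembly factors and of paralogues of the subunits, and 4 of them were measured. Sdhaf1, Sdhaf2 and Sdhaf2-like had no matched probe set, which left Sdhaf3 as the only assembly factor measured in this list. Limma called 0 of the 4 in either direction, beside 5.10% of all probe sets. Of the 4 genes, 0 had an unadjusted p under 0.05, and 0 passed the methods' t-test. Sdhaf3, which in yeast and flies helps the iron-sulphur subunit to mature, had a mean signal of 731 ± 23.9 with vehicle and 692 ± 30.6 with PA, a log2 difference of -0.08 (standard error 0.06, adjusted p = 0.555) that came to 0.0007 with centring on the 75th percentile. The paralogues were dim and imprecise on these arrays, all below the median of mean signal. SdhAL had signals of 25.09, 21.69 and 20.86 with vehicle and of 5.87, 2.83 and 32.06 with PA, so the PA arrays were spread to both sides of the vehicle arrays. SdhBL had a log2 difference of -2.04 with a standard error of 1.13 (adjusted p = 0.407), and SdhCL one of 0.66 with a standard error of 0.94 (adjusted p = 0.82). A change of either paralogue was not detectable at such signals.

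Iron-sulphur clusters are built in the mitochondrial matrix and then placed in SdhB and other proteins. Of the 15 genes listed for this process, 13 were measured, all above the median of mean signal. Limma called 2 of the 13 higher and 0 lower, beside 2.29% higher and 2.82% lower over all probe sets. These shares include dim probe sets, and calls were more frequent among bright ones. A fit of only the upper 50% of mean signal called 582 higher and 729 lower, against 429 and 529 over all. An unadjusted p under 0.05 was found for 4, all of them higher, and the share of all probe sets at that level was not counted. The median log2 difference of the 13 was 0.04. The 2 called genes were mfrn and CG13623. The gene mfrn encodes mitoferrin, which carries iron into the mitochondrion. Its signals were 1027, 919 and 907.1 with vehicle and 1191, 1192 and 1258 with PA. All PA arrays were above all vehicle arrays, and the log2 difference of mfrn was 0.35 with a standard error of 0.06 (adjusted p = 0.00252). CG13623, annotated as IscA2, encodes a counterpart of a factor that acts late in the making of such clusters. It had 991.1, 908.4 and 936.2 with vehicle and 1200, 1066 and 1176 with PA, again with no overlap, and rose by 0.28 (standard error 0.06, adjusted p = 0.0118).

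Both calls depended on the scaling and on the model of the spread. With arrays centred on the median the adjusted p was 0.082 for mfrn and 0.274 for CG13623, and with limma run without a trend of spread on signal it was 0.347 and 0.443. The call of CG13623 was also lost without vehicle array 2 (adjusted p = 0.0537), PA array 1 (0.056) or PA array 3 (0.0597). Hsc20, a co-chaperone that hands clusters on from their scaffold, had signals of 186.1, 186.7 and 160.2 with vehicle and of 265.9, 192.4 and 241.4 with PA. Its log2 difference of 0.38 had a standard error of 0.13 and did not pass (adjusted p = 0.106), but without PA array 2, the lowest of its group, it was 0.52 with an adjusted p of 0.0395. With centring on the 75th percentile Hsc20 was called too (0.46, adjusted p = 0.0341).

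FAD, the cofactor bound to SdhA, is made from riboflavin by riboflavin kinase and FAD synthase. Only the second step was measured, as Flad1, whose product is FAD synthase. Flad1 had signals of 473.9, 456.6 and 521.1 with vehicle and of 587.9, 539.3 and 615.2 with PA, so the groups did not overlap. The log2 difference was 0.26 (standard error 0.07), with an adjusted p of 0.0474 that lies just inside the threshold. The call was lost under 10 of 18 alternatives, among them the fits without vehicle array 1 (adjusted p = 0.137), vehicle array 2 (0.171), PA array 1 (0.129) or PA array 3 (0.184).

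Succinate reaches complex II from the preceding steps of the tricarboxylic acid cycle. Of 14 listed genes of the cycle other than complex II, 9 were measured. Limma called 0 of the 9 in either direction, beside 5.10% of all probe sets. At an unadjusted p under 0.05 there were 1 higher and 1 lower, and by the methods' t-test 2 higher and 1 lower. Over all 18769 probe sets that t-test called 1234 higher and 1460 lower. The median log2 difference of the 9 genes was -0.03. ScsbetaG, a subunit of the succinyl-CoA synthetase that releases succinate, had signals of 1450, 1393 and 1387 with vehicle and of 1300, 1256 and 1320 with PA. On this probe set, the brightest of 3, the PA arrays were all below the vehicle arrays, with a log2 difference of -0.13 (standard error 0.04, adjusted p = 0.131). A second one of nearly the same brightness had 1378, 1406 and 1333 against 1358, 1203 and 1374, so the groups overlapped, and its difference was -0.07 (standard error 0.05, adjusted p = 0.625). The remaining one was dim, at -0.06 with a standard error of 0.38. Idh3a, the catalytic subunit of NAD-dependent isocitrate dehydrogenase, had means of 4368 ± 63.9 and 4605 ± 37.2 and a log2 difference of 0.08 (adjusted p = 0.257). It was at -0.0042 with centring on the median, and at 0.16 and called higher (adjusted p = 0.0368) with centring on the 75th percentile. mAcon1, the mitochondrial aconitase and itself an iron-sulphur enzyme, had 2892 ± 103 and 2732 ± 40.8, a difference of -0.08 (adjusted p = 0.313). The genes of the cycle were thus placed on both sides of 0, as the plot of differences by group shows.

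Complex II shares its electron acceptor with other dehydrogenases of the inner membrane. Of 5 such genes 3 were measured, and limma called 0 in either direction, beside 5.10% of all probe sets. Of the 3 genes, 1 had an unadjusted p under 0.05, and the methods' t-test called 1 lower. That gene was Sqor, the sulphide:quinone oxidoreductase, with signals of 852.8, 801.9 and 853.6 with vehicle and of 758, 766.3 and 769.8 with PA, a log2 difference of -0.13 (standard error 0.05, adjusted p = 0.192). slgA, the proline dehydrogenase, had a difference of -0.08 (adjusted p = 0.362) and Dhod, the dihydroorotate dehydrogenase of pyrimidine synthesis, one of 0.05 (adjusted p = 0.603), which turned to -0.03 with centring on the median.

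For the synthesis of coenzyme Q itself, 9 of 11 listed genes were measured. Limma called 0 of the 9 in either direction, beside 5.10% of all probe sets. Of the 9 genes, 2 had an unadjusted p under 0.05, and the methods' t-test called the same 2 lower. Coq9, a lipid-binding protein of the pathway, had signals of 511.1, 536.9 and 542.6 with vehicle and of 435.4, 457.7 and 492.3 with PA, with every PA array below every vehicle array and a log2 difference of -0.20 (standard error 0.07, adjusted p = 0.106). Coq5, a methyltransferase of the pathway, had means of 528 ± 20.5 and 469 ± 19.7, a difference of -0.17 (standard error 0.06, adjusted p = 0.161). qless, which makes the isoprenoid tail, overlapped between groups and had a difference of -0.21 (standard error 0.11, adjusted p = 0.35). The median over the 9 genes was -0.02.

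**Figure D3:**
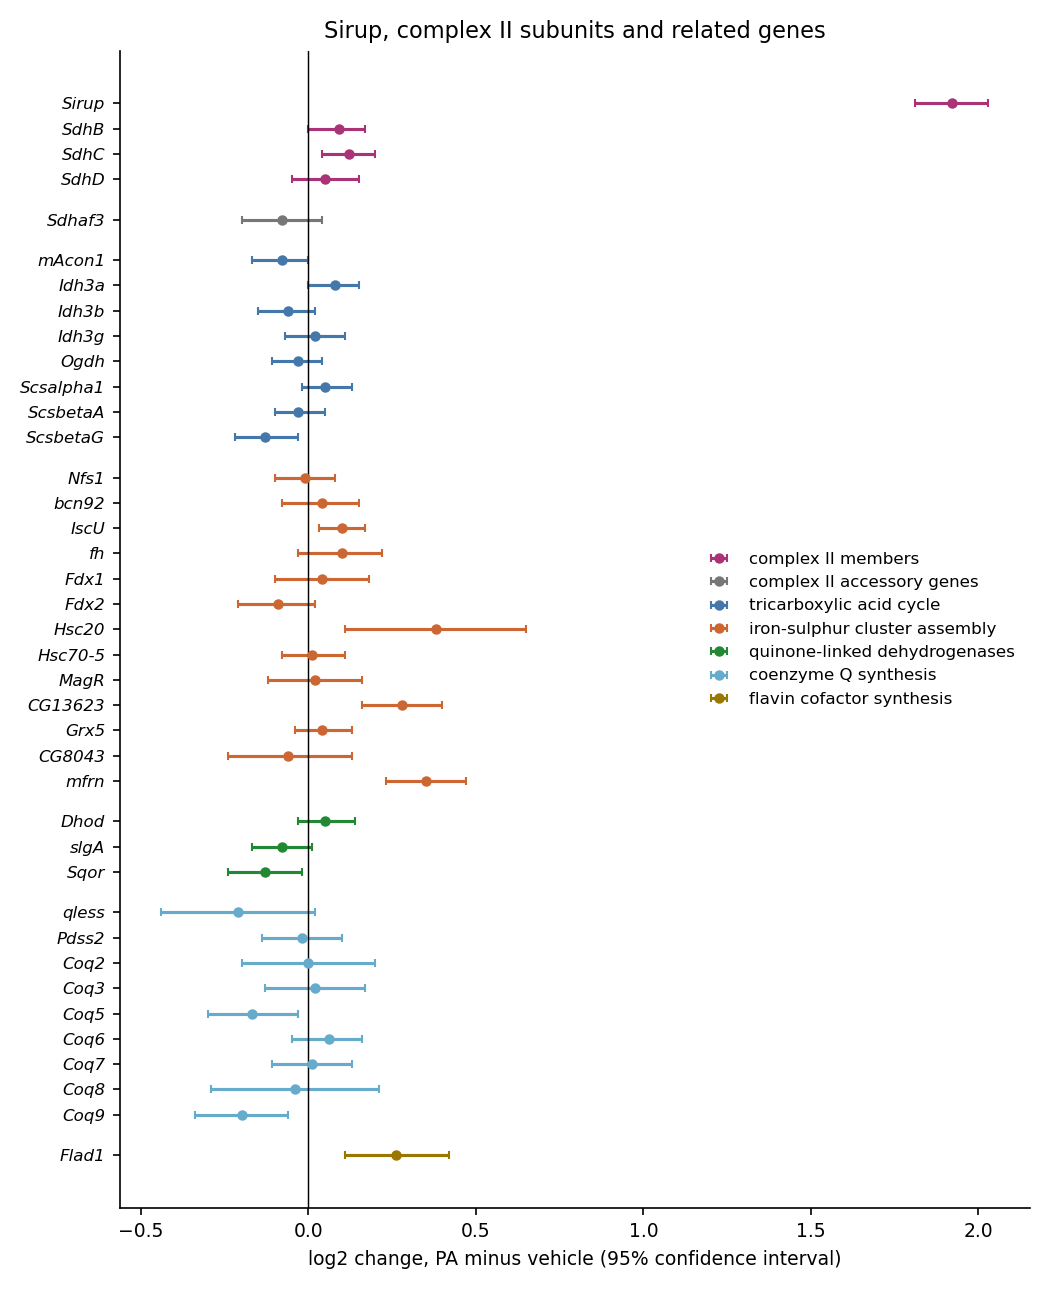
Log2 difference, PA minus vehicle, with its 95% confidence interval (horizontal axis) for Sirup, the subunits and the related genes, 1 row for each gene and a colour for each group. SdhAL, SdhBL, SdhCL and mAcon2, which were below the median of mean signal, are left out. Sirup stands at 1.92, and the highest point among all other genes shown is Hsc20 at 0.38. The interval of Sirup makes no allowance for its choice by its rise.

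As a description, Sirup and the subunits did not move by the same amount across the 6 arrays. Sirup was chosen for its rise on these arrays, so this gap is no test. Relative to the mean of the vehicle arrays, Sirup was at 1.88, 1.85 and 2.02 on the log2 scale on PA arrays 1, 2 and 3, where SdhB was at 0.06, 0.11 and 0.08, SdhC at 0.11, 0.12 and 0.14, and SdhD at 0.05, 0.11 and -0.01. The genes whose pattern was most like that of Sirup were found by the root mean square difference between log2 signals, each relative to its own vehicle mean, over the 6 arrays. The candidates were 7956 other probe sets with 1 gene and a mean signal above the median. Probe set 1635227_at, described above, was no candidate because the annotation ties it to no single gene, and its distance from Sirup was 0.10. These values rest on the same contrast that chose Sirup and carry no test.

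Among the candidates the nearest was Hph, the enzyme that hydroxylates a proline of the hypoxia-inducible factor, at a distance of 0.26. Its signals were 1658, 1498 and 1624 with vehicle and 4988, 4757 and 4528 with PA. In contrast to Sirup, it was highest on PA array 1 and lowest on PA array 3. Next came CG9815 (distance 0.27, log2 difference 1.55), Dph1, which takes part in making the diphthamide residue of elongation factor 2 (0.31, log2 difference 1.5), and fok (0.32, log2 difference 1.48). The fifth, CG42264, was further off, at 0.45. It was dim, with 12.96, 10.55 and 10.95 against 22.88, 26.26 and 41.76, and had a log2 difference of 1.36 with a standard error of 0.53. Over the 6 arrays, Pearson's r with Sirup was 0.995 for the first 4 genes and 0.946 for CG42264, and nearly all of it is the difference between the groups that they share.

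**Figure D4:**
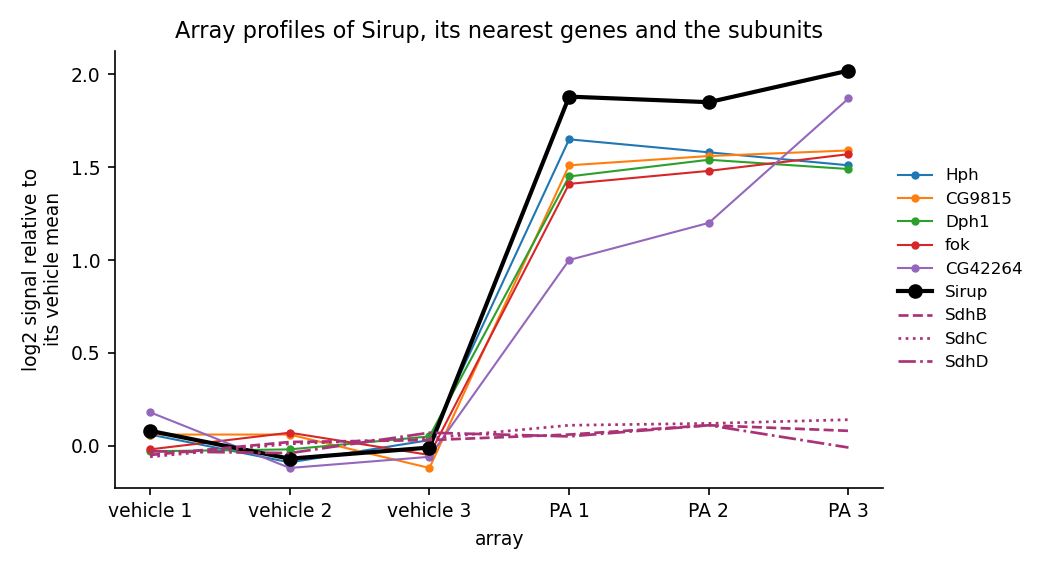
Log2 signal relative to the gene's own vehicle mean (vertical axis) on each of the 6 arrays (horizontal axis) for Sirup (black), the 5 genes nearest to it (colours) and SdhB, SdhC and SdhD (broken lines). Lines only join the points of a gene, since arrays of a group have no order. Sirup reached 2.02 on PA array 3, whereas the subunits stayed between -0.06 and 0.14 on all arrays.

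The genes beside Sirup on the chromosome were examined next, 5 on each side in the order of the RefSeq gene table (Release 6 assembly). Their names were looked up after the values had been seen. Of the 10 neighbours, 9 were measured, 7 of them above the median of mean signal. Limma called 2 of the 9 higher and 0 lower, beside 2.29% higher and 2.82% lower over all probe sets, shares that include dim probe sets. Among bright probe sets calls were more frequent. A fit of only the upper 50% of mean signal called 582 higher and 729 lower. Both called genes follow Sirup directly. Wwox, a WW domain-containing oxidoreductase, is the next gene, and its gene model overlaps that of Sirup by 7 bases at one end. Its signals were 779.8, 729.5 and 760.4 with vehicle and 911.2, 925.3 and 947.3 with PA. All PA arrays were above all vehicle arrays, and the rise of Wwox had a log2 size of 0.29 (standard error 0.05, adjusted p = 0.00422). The order of the PA arrays was not that of Sirup, which was lower on PA array 2 than on PA array 1.

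Spn28Dc, a serpin, comes after Wwox. It had 292.7, 289 and 288.3 with vehicle and 454.7, 456.2 and 453 with PA, with very little spread in either group, and rose by 0.65 (standard error 0.07, adjusted p = 7.04e-05). Without the trend in limma the adjusted p was 0.133 for Spn28Dc and 0.347 for Wwox, and with centring on the median it was 0.202 for Wwox. CG12560, one gene further, had 130.3, 159.4 and 147.6 against 192.9, 159.8 and 162.5, a log2 difference of 0.24 that did not pass (standard error 0.13, adjusted p = 0.389). On the other side, Snoo, a co-repressor of SMAD proteins, had 301.1, 342.5 and 300.6 with vehicle and 258.6, 262.1 and 273.3 with PA, a log2 difference of -0.25 (standard error 0.08, adjusted p = 0.117), while its 2 dimmer probe sets overlapped between groups. The nearest neighbour on that side, the antisense RNA CR44996, had no matched probe set. How the target of a probe set lies on each strand was not examined, and whether signal of one overlapping gene reaches the other's probe set was not tested.

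**Figure D5:**
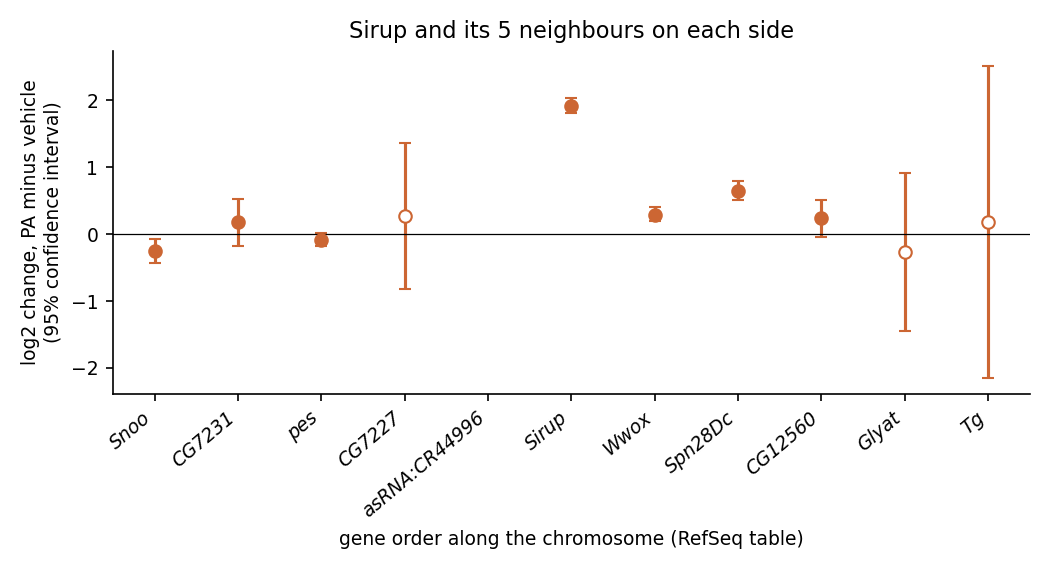
Log2 difference, PA minus vehicle, with its 95% confidence interval (vertical axis) for Sirup and its 5 neighbours on each side in gene order (horizontal axis). Open circles mark genes with a mean signal under 50 in both groups, and no point is drawn for the antisense RNA without a probe set. Spn28Dc at 0.65 and Wwox at 0.29 are the called neighbours, both on the same side of Sirup. The interval of Sirup makes no allowance for its choice by its rise.

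The arrays were alike in scale, with a mean of 500 once 2% of the probe sets at either end were set aside, and medians of 20.7 to 24.8. Their 75th percentiles differed between groups, at 514 to 533 with vehicle against 491 to 495 with PA. All 11 hemocyte markers had a probe set, 10 of them above the median of mean signal, and their summed signal was 37837 to 39218 with vehicle and 38354 to 40576 with PA. Limma called 2 of the 11 higher and 1 lower, beside 2.29% higher and 2.82% lower over all probe sets, dim ones included. Mean signals of the 11 ran from 16.6 for Sr-CI to 12000 for Hml, and Sr-CI and Pxn were below elav, a marker of neurons. Of 12 markers of neurons, muscle, fat body, germline and testis, 10 were measured, 3 of them above the median of mean signal. These 10 had summed signals of 386 to 398 with vehicle and 361 to 367 with PA, with 0 called and 0 at an unadjusted p under 0.05. Their mean signals ran from 0.969 for dj to 178 for elav. No detection calls were used here, so none of these markers can be called absent.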

How the data were processed

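RNA of S2 cells treated with 0.1 mM PA or vehicle for 2 h was labelled and hybridised by the authors, with 1 GeneChip array (Drosophila genome 2.0) per sample. The deposited values are MAS5 signals, an intensity on the linear scale for each of 18952 probe sets. The version of MAS5, detection calls and a genome build are not given in the sources used here. The table holds no comparisons by the authors. Each array was checked to have the same trimmed mean, so no further scaling was applied, and signals were taken to log2 with no offset. The 183 control probe sets were left out.

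PA minus vehicle was fitted in R 4.3.3 with the lmFit and eBayes functions of limma 3.58.1, with a trend of the spread on signal, on all 18769 remaining probe sets, with Benjamini-Hochberg adjustment over all of them, and called at an adjusted p under 0.05. Exact permutation tests used scipy 1.17.1 in Python 3.11.15. The methods' t-test was Student's test, 2-sided, of log2 signals at an unadjusted p under 0.05. The number of arrays, 3 per group, limits the precision.

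Gene symbols were those of the array's annotation, in which 13647 probe sets have 1 gene, 402 several and 4720 none, and 13544 were updated through gene identifiers. Where a gene had several, the brightest stood for it. Of positions, only the order and overlap of gene models in the RefSeq table were used, and no sequence was used here. Named are the members, in each related list every called gene and up to 3 with the smallest p, all complex II accessory genes, and the 5 genes nearest to Sirup. Neighbours on the chromosome and the list of other assembly factors were added after their values were seen. Members, lists and tests were chosen with earlier results of these data known, so counts over a list are not independent evidence. Alternatives were other centrings, quantile and cyclic loess normalisation, offsets of 16 and 64, a filter on signal, limma without a trend or with robust variances, the methods' t-test, a replicate block, and leaving out each array.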

Additional observations from a re-analysis of the deposited data

How the results depend on the processing

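The log2 difference of Sirup stayed between 1.84 and 2.00 under all 18 alternatives. That of SdhB ran from 0.00 to 0.17, that of SdhC from 0.04 to 0.20 and that of SdhD from -0.03 to 0.13. SdhB passed with centring on the 75th percentile (0.17, adjusted p = 0.0446) and in the methods' t-test (0.09, unadjusted). SdhC passed with that centring (0.20), in the upper 50% of mean signal (0.12, adjusted p = 0.0388) and in the methods' t-test (0.12, unadjusted). With centring on the median SdhD turned to -0.03, Idh3a to -0.0042, Nubpl to -0.0014 and Dhod to -0.03, and with centring on the 75th percentile Sdhaf3 turned to 0.0007. Under the other alternatives these kept their sign. The probe sets called higher and lower were 429 and 529, but 58 and 350 with centring on the median, 988 and 211 with centring on the 75th percentile, 238 and 266 after quantile and 248 and 269 after cyclic loess normalisation, 270 and 383 with an offset of 16, 225 and 314 with an offset of 64, and 7 and 0 without a trend. The methods' t-test gave 1234 and 1460, and 29 and 9 after Benjamini-Hochberg adjustment. Leaving out 1 array gave 196 to 402 higher and 262 to 412 lower, and the counts fell by over 1.5 times in either direction without vehicle array 1 (260 and 283), vehicle array 2 (220 and 282), PA array 1 (196 and 329), PA array 2 (213 and 294) or PA array 3 (218 and 262). The share of calls that were higher was 44.8%, but 14.2% with centring on the median, 82.4% on the 75th percentile and 31.4% on the upper 10% of mean signal, and all 7 calls without a trend were higher. The first 2 of these centrings moved the median difference of all probe sets to -0.094 and 0.067. The count of iron-sulphur genes called higher was 0 with centring on the median and without a trend, 4 with centring on the 75th percentile, and 1 without vehicle array 2, PA array 1 or PA array 3. The cause of these changes was not tested.

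The labels do not say whether the numbers 1 to 3 pair vehicle and PA arrays, and the values do not show a pairing. Residuals of arrays with the same number correlated at -0.001, 0.019 and -0.002, within the range of arrays with other numbers or close to it (-0.017 to 0.018). With the number as a replicate block, 386 probe sets were called higher and 557 lower, and SdhB (adjusted p = 0.292), SdhC (0.0873) and SdhD (0.695) were again not called. Sirup, SdhB, SdhC and SdhD had 1 probe set each, so the alternative of other probe sets gave no value for them, and no alternative was run for SdhA. Dim genes such as SdhAL, SdhBL and SdhCL are limited by the spread of low signals, with standard errors of 0.83 to 1.13 on the log2 scale.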

Other observations

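The assembly of the other respiratory complexes was set beside that of complex II with a list written after the data had been seen. Of 15 assembly factors of complexes I, III and IV, 14 were measured. Limma called 0 of the 14 in either direction, beside 5.10% of all probe sets. In the list, 1 had an unadjusted p under 0.05 and 1 was called higher by the methods' t-test. Over all 18769 probe sets that t-test called 1234 higher and 1460 lower. The log2 differences, PA minus vehicle, ran from -0.11 to 0.08 with a median of -0.03, beside 1.92 for Sirup, which was chosen for its rise. The gene with the unadjusted p under 0.05 was Nubpl, an iron-sulphur factor of complex I, with signals of 3174, 3196 and 3171 with vehicle and of 3333, 3363 and 3384 with PA, a difference of 0.08 (adjusted p = 0.248). Centring moved it to -0.0014 on the median and to 0.16 on the 75th percentile, where it was called higher (adjusted p = 0.0288), and its other probe set was dim and overlapped between groups. The next smallest p-values in the list were those of Coa7, a factor of complex IV, with 1575, 1506 and 1448 against 1368, 1436 and 1426 (-0.10, adjusted p = 0.294), and of Uqcc1, a factor of complex III (-0.11, adjusted p = 0.428).

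The neighbours of the subunits on the chromosome were counted in the same way as those of Sirup. Of 10 genes beside each subunit, 8 were measured for SdhB, 9 for SdhC and 8 for SdhD. Over all probe sets, dim ones included, 2.29% were called higher and 2.82% lower. Limma called 0 beside SdhB and 0 beside SdhC, where Tctp, the next gene, had a difference of 0.16 (adjusted p = 0.0683), and 1 higher and 1 lower beside SdhD. The higher one was Lsd-1, a perilipin of lipid droplets, with 540.4, 538.4 and 506.8 with vehicle and 591.9, 614.8 and 639.8 with PA (0.22, adjusted p = 0.0487). The lower one was CG10214, with 2086, 2240 and 2129 against 1903, 1902 and 1939 (-0.17, adjusted p = 0.0299). The call of Lsd-1 was lost under 13 of 18 alternatives, each of the 6 left-out arrays among them, and that of CG10214 under 9 of 18, among them the fits without vehicle array 2, vehicle array 3 or any of the PA arrays.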
